A study of Mus musculus with 1 sample.

Results

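A set of 7 hallmark genes of alveolar macrophages (AMs) were followed cell by cell: Chil3, Ear1, Ear2, Car4, Siglec1, Itgax and Krt79. They were taken by name, and all 7 were listed among the 11918 genes of the library. The question was which of these hallmarks every sorted AM carried at a like level and which varied from cell to cell. The data are single-cell transcriptomes (10x Genomics 3' assay, v2 chemistry) of AMs from the lung of a WT mouse aged 8 to 12 weeks, of FVB/NJ origin and crossed to C57BL/6 for 10 generations. In the study's own description all cells come from this 1 animal, which carried floxed Hdac3 alleles without Cre. Cells were sorted from digested lung as CD45+CD11c+SiglecF+, and 5000 were loaded. Hdac3-deficient cells were not analysed here. There is 1 library, so no difference between mice or conditions could be tested, and every value describes cells of this library.

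The library held 2055 cells and 7222978 unique molecular identifiers (UMIs, each standing for 1 captured transcript), with 1143 to 8603 UMIs per cell and a median of 3278. In 384 cells (18.7%) mitochondrial genes took more than 5% of the UMIs. Because CD11c is the protein encoded by Itgax, the sort used the product of 1 of the hallmarks, and its presence is not a finding. Single markers of other cell types were found in part of the cells, most often those of neutrophils (410 cells, 20.0%, at most 23 UMIs in a cell) and of monocytes or interstitial macrophages (247 cells, 12.0%, at most 27 UMIs). Only 2 cells carried at least 3 different markers and 10 UMIs of another type, in both cases B or plasma cells. None did so for alveolar epithelium, airway epithelium, neutrophils, monocytes or interstitial macrophages, or dendritic cells. The rule was strict where markers were missing, with 4 of 7 listed for neutrophils, 4 of 8 for dendritic cells and 6 of 9 for monocytes or interstitial macrophages. Endothelium and stroma could not meet it, since only 2 of their 7 markers were listed. None of the markers looked for in eosinophils (5 genes) or in T and NK cells (8 genes) was listed.

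AMs live on the air side of the alveolus, where they take up surfactant, inhaled particles and dying cells, and their identity depends on GM-CSF and the nuclear receptor PPAR-γ. The hallmarks come from unrelated families. Chil3 (Ym1) is a secreted chitinase-like lectin without chitinase activity. Ear1 and Ear2 are secreted ribonucleases of the eosinophil-associated branch of the RNase A superfamily. Car4 is a carbonic anhydrase anchored at the cell surface, Siglec1 (CD169) a sialic acid-binding adhesion receptor, and Itgax the α chain that pairs with Itgb2 to form an integrin. Krt79 is a keratin, a subunit of intermediate filaments better known from epithelium.

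Only Ear1 and Ear2 lie on the same chromosome. In GRCm38 (GENCODE M21), Chil3 lies at chr3:106147554-106167564, Car4 at chr11:84957786-84966044, Siglec1 at chr2:131069220-131086765, Itgax at chr7:128129547-128150657 and Krt79 at chr15:101929332-101940324. Ear1 spans chr14:43818765-43875517 on the minus strand and Ear2 chr14:44102654-44103534 on the plus strand. The RefSeq start sites of Ear1 and Ear2 are 283015 bases apart. RefSeq promoter entries (GRCm38.p6) were found for 6 of the 7 hallmarks, Siglec1 being the exception. The 250 bases before the start site are shown for Ear1 and Ear2, whose levels moved together in these cells, for Ear10, a close relative of both with few UMIs, and for Chil3 and its neighbour Chil4, whose UMI numbers lay far apart. Ear1, Ear2 and Ear10 were read at chr14:43819640-43819889 (minus strand), chr14:44102404-44102653 (plus strand) and chr14:43923597-43923846 (minus strand), and Chil3 and Chil4 at chr3:106167565-106167814 and chr3:106219480-106219729 (both minus strand). Capitals mark bases of an aligned stretch that differ from, or have no partner in, the compared gene, which is Ear2 for Ear1, Ear1 for Ear2 and Ear10, Chil4 for Chil3, and Chil3 for Chil4.
Ear1: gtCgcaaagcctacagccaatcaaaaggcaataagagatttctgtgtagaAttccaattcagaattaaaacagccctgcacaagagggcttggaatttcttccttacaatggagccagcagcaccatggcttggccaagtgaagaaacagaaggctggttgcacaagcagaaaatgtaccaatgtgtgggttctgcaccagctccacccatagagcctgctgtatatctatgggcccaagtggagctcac
Ear2: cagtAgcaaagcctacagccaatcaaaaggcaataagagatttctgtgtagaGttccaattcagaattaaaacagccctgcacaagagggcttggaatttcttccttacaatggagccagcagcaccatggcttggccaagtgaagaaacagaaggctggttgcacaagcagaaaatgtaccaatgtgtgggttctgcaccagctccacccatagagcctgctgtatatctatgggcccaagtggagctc
Ear10: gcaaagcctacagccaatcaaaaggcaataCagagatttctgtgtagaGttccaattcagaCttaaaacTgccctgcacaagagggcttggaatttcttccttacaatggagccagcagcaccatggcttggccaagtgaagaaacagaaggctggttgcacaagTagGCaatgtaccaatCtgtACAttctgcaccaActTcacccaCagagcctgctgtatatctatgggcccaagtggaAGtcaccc
Chil3: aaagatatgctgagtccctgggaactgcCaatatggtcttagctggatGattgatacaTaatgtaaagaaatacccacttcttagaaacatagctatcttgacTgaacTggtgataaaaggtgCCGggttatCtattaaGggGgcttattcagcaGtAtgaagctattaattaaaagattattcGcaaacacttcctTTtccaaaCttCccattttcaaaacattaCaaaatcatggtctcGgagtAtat
Chil4: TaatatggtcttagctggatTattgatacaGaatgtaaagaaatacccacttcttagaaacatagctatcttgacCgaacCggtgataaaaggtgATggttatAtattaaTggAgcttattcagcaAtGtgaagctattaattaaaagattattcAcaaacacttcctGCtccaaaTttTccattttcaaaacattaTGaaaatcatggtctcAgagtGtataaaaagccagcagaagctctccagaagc

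The windows of Ear1 and Ear2 were identical at 246 of 248 aligned positions (99.2%), so almost the same sequence lies before their RefSeq start sites. Ear10 matched Ear1 at 232 of 248 positions (93.5%), Rnase2b at 204 of 224 (91.1%) and Ear6 at 212 of 249 (85.1%). Chil3 and Chil4 matched at 201 of 223 (90.1%). Reads in this assay come from the 3' end, and sequences shared exactly with other genes were looked for there. When every 98-base window of the final 300 transcript bases was looked up in all other genes, none was found again for Chil3, Ear2, Car4, Itgax or Krt79, and 1.31% were for Siglec1. For Ear1, 23.4% of 351 such sequences also occurred in Ear10 or the pseudogene Ear-ps9, so that a part of the reads of Ear1 cannot be assigned to 1 gene. None of the sequences of Ear1 occurred in Ear2 or the reverse. Only exact matches were looked up, and whether reads were assigned to a near match in a related gene was not tested.

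Together the 7 hallmarks took 1.97% of all UMIs, and the secreted proteins held nearly all of this. Chil3 alone accounted for 68.8% of the hallmark UMIs and the 2 ribonucleases for 24.6%. UMIs of a 3' assay are counted once per transcript end and do not grow with transcript length. Their numbers still depend on how many reads can be assigned to 1 gene. The count of Ear1, with 23.4% of its 3' sequences shared with other genes, may therefore be too low beside that of Ear2. Per 10000 UMIs, Chil3 had 135.9, Ear2 33.2, Ear1 15.4, Car4 5.88, Krt79 3.73, Itgax 3.14 and Siglec1 0.169. The 95% Poisson intervals of neighbours in this order did not overlap, the closest being Krt79 (3.59 to 3.87) and Itgax (3.01 to 3.27). These intervals, and all others given here, cover counting error only.

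Chil3 was the most uniform in detection, with UMIs in 2055 of 2055 cells (100%, 95% Wilson interval 99.8% to 100%). It ranked 7 among all genes by UMIs. Its level per cell ran from 7.58 to 879 UMIs per 10000 with a median of 121.9, and 90% of cells lay between 60.7 and 241, a 3.97-fold range. Both ends were thinly filled, with 11 cells under 30 and 11 cells over 400 UMIs per 10000. The cell with the highest level had 1888 UMIs in all and 20.3% of them on mitochondrial genes, whereas the next 2 cells, at 680 and 619, had 4.26% and 4.25%.

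Ear2 was detected in 2030 cells (98.8%, interval 98.2% to 99.2%) and Ear1 in 1884 cells (91.7%, interval 90.4% to 92.8%). The level of Ear2 had a median of 28.5 UMIs per 10000, a 5th to 95th percentile range of 6.62 to 70.3 and a highest value of 139. The level of Ear1 had a median of 12.3, a range of 0 to 38.0 and a highest value of 79.2. Ear2 had more UMIs than Ear1 in 1736 cells (84.5%), the same number in 128 and fewer in 191. Reads of Ear1 that could not be assigned to 1 gene would lower its count, and their part was not tested. Both genes had more empty cells than counting alone would give at these means and depths. For Ear1, 8.32% of cells had no UMI where a Poisson model gave 2.12%, and for Ear2 the values were 1.22% and 0.111%.

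Car4, Krt79 and Itgax were seen in a smaller majority of cells, 68.2% (interval 66.2% to 70.2%), 61.2% (59.0% to 63.3%) and 61.1% (59.0% to 63.2%). Their medians were 3.94, 2.77 and 2.62 UMIs per 10000, and their highest levels 52.1, 32.5 and 22.2. At 1 to 2 UMIs per cell on average, many empty cells are a matter of depth, and the 3 genes differed in how many. Itgax was missing from 38.9% of cells where the Poisson model gave 36.5%, Krt79 from 38.8% where it gave 30.8%, and Car4 from 31.8% where it gave 17.2%. Siglec1 had 122 UMIs in 119 cells (5.79%, interval 4.86% to 6.89%), and the 94.2% of cells without it were close to the 94.3% of the Poisson model. At this depth, cells with and without Siglec1 transcripts could not be told apart.

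**Figure D1:**
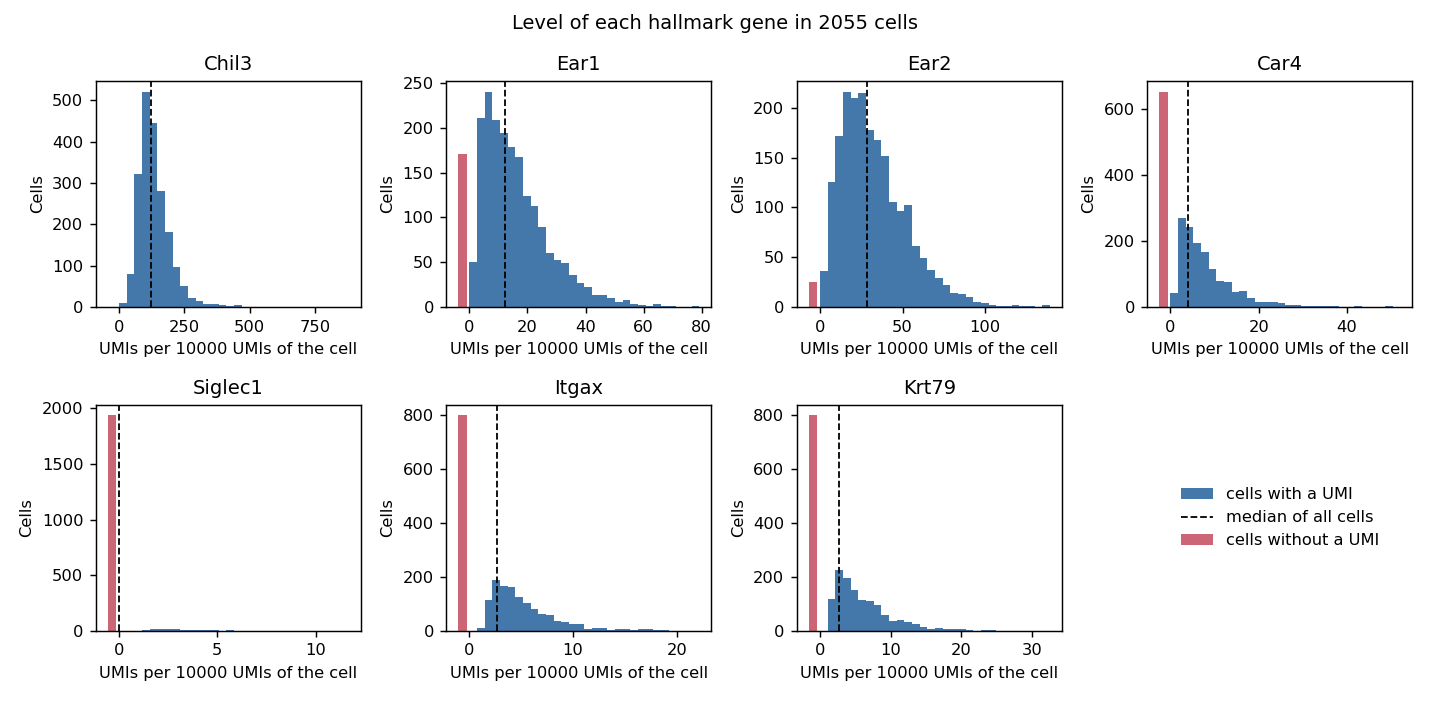
Number of cells (vertical axis) by level of each hallmark in UMIs per 10000 UMIs of the cell (horizontal axis, a different range in each panel), with cells that had no UMI as a separate red bar and the median of all cells as a dashed line. Chil3 had no empty cells, Ear2 had 25, Ear1 171, Car4 653, Krt79 798, Itgax 799 and Siglec1 1936.

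Detection followed depth for the less abundant hallmarks. Between the 514 shallowest cells (median 1895.5 UMIs) and the 513 deepest (median 5424 UMIs), the share of cells with a UMI went from 49.8% to 84.4% for Car4, from 44.2% to 78.6% for Krt79, from 44.9% to 73.5% for Itgax and from 82.7% to 98.2% for Ear1. The pooled level of these 4 genes moved less. It was 5.09 and 6.37 UMIs per 10000 for Car4, 3.58 and 3.75 for Krt79, 3.49 and 2.89 for Itgax and 13.1 and 16.6 for Ear1. Siglec1 went from 4.86% to 8.77% of cells, while its pooled level was 0.272 (interval 0.178 to 0.398) and 0.164 (interval 0.120 to 0.218). When each of 1946 cells was thinned to 1500 UMIs and 109 shallower cells were left out, Chil3 was still found in 100% of cells, Ear2 in 95.3%, Ear1 in 80.1%, Car4 in 49.2%, Krt79 in 40.3%, Itgax in 36.5% and Siglec1 in 2.42%. The order of the hallmarks by detection was the same before and after thinning, although Krt79 and Itgax, with 1257 and 1256 cells, could hardly be ranked before it.

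A UMI can also come from RNA set free by other cells. The 2 cells with B or plasma cell markers, a type not known for Chil3, Ear1 or Ear2, had 15 and 8 UMIs of Chil3, 5 and 2 of Ear1 and 4 and 2 of Ear2, among 3952 and 3489 UMIs. They had none of Car4, Siglec1, Itgax or Krt79, and none of Siglecf or Mrc1. Their Chil3 levels, 38.0 and 22.9 UMIs per 10000, were above those of only 1.02% and 0.389% of all cells, and their Ear1 levels were 12.7 and 5.73, the first of which is near the median of all cells. Whether these cells shared a droplet with an AM or took up free RNA was not tested. A few UMIs of Chil3, Ear1 or Ear2 in a cell are therefore no proof that the cell made them. All 2055 cells had at least 1 hallmark, 47 had all 7, and 4 cells had Chil3 alone.

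To separate differences between cells from counting noise, the excess coefficient of variation (excess CV) was estimated, the spread of a gene over cells, relative to its mean, that remains after the Poisson noise of its UMIs and the depth of the cells are taken out. It could be given for the 6 hallmarks that averaged at least 0.5 UMI per cell, which leaves out Siglec1 (0.0594 UMI per cell). The excess CV was 0.404 for Itgax, 0.405 for Chil3, 0.522 for Ear2, 0.619 for Ear1, 0.669 for Krt79 and 0.881 for Car4. An excess CV of 0.5 or more was reached by 4 of the 6, against 13.8% of the 1123 genes above the same mean. The median was 0.570 for the 6 hallmarks and 0.295 for the 1123 genes. Each of the 6 lay above at least 76.9% of the 1123 genes. Ear2 stood close to the threshold, and its excess CV was 0.499 without the 1% of cells with its highest levels.

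**Figure D2:**
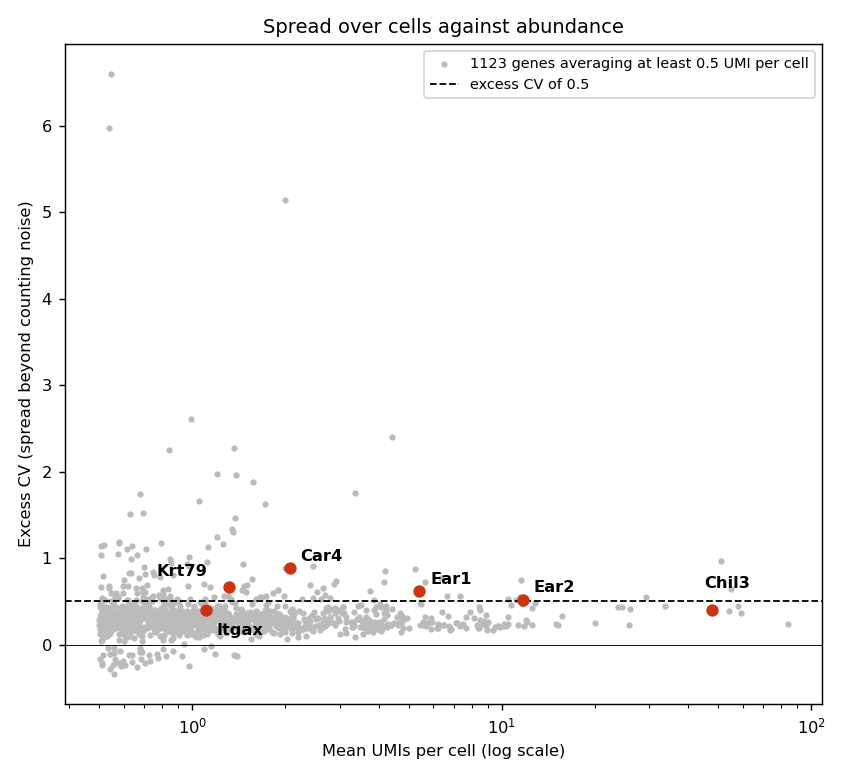
Excess CV (vertical axis) against mean UMIs per cell (horizontal axis, log scale) for 1123 genes in grey and 6 hallmarks in red, with a dashed line at an excess CV of 0.5. Car4, Krt79, Ear1 and Ear2 lie above the line, and Chil3 and Itgax below it at 0.405 and 0.404.

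Car4 held rank 46 by excess CV among the 1123 genes, Krt79 rank 76, Ear1 rank 89, Ear2 rank 138, Chil3 rank 253 and Itgax rank 259. Chil3 and Itgax thus had the lowest values when all UMIs were used, but in cells thinned to 1500 UMIs Itgax was at 0.582, above Ear2 at 0.543, and Chil3 alone stayed under 0.5 at 0.441. For Chil3 the spread of the levels themselves (CV 0.471) was mostly beyond counting, whose part was 0.159. For Itgax the opposite held, with 1.12 for the levels and 1.04 for the counting part.

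The spread was read a second way, which like the excess CV takes counting noise as Poisson. Each UMI was assigned at random to 1 of 2 sets, cells were ranked by the level of a gene in the first set, and the 514 highest and 514 lowest cells were compared in the other set. Counting noise alone gives a ratio near 1. The level of Ear1 was 25.3 UMIs per 10000 in the highest cells and 8.05 in the lowest (3.14-fold), that of Ear2 52.4 and 17.5 (3.00-fold), that of Car4 10.5 and 3.57 (2.95-fold) and that of Chil3 201 and 85.5 (2.36-fold). Krt79 had 5.43 and 2.94 (1.85-fold) and Itgax 3.85 and 3.03 (1.27-fold). A ratio of 1.5 or more was found for 5 of the 6 hallmarks and for 16.4% of the 1123 genes, whose median ratio was 1.20. Genes with few UMIs are ranked poorly by this method, which holds their ratio near 1, so the ratios of Krt79 and Itgax are not on the same footing as that of Chil3. Car4, with fewer UMIs than Chil3, still had the larger ratio.

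**Figure D3:**
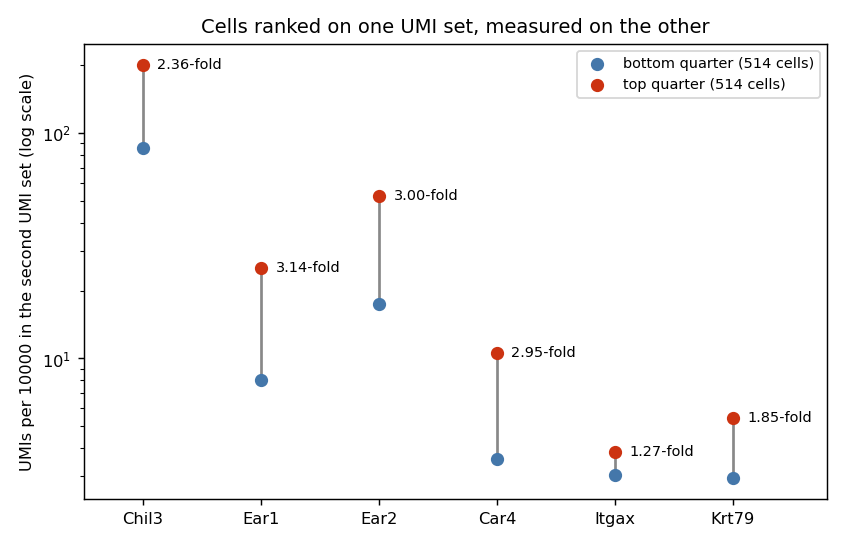
Level of 6 hallmarks in the second set of UMIs (vertical axis, UMIs per 10000, log scale) in the 514 cells ranked lowest (blue) and the 514 ranked highest (red) by the level of the same gene in the first set. The distance is widest for Ear1 at 3.14-fold and narrowest for Itgax at 1.27-fold.

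The hallmarks did not vary as 1 block. Of 21 pairs, 4 had a Pearson r of at least 0.1 over the 2055 cells on the log values, and the other 17 lay between -0.05 and 0.09. These correlations describe cells that share a library and differ in depth. The highest was that of Ear1 and Ear2, with r = 0.446 and Spearman's rho = 0.510. Chil3 followed with Ear2 (r = 0.331, rho = 0.339), Ear1 (r = 0.194, rho = 0.226) and Car4 (r = 0.127, rho = 0.133). In 1946 cells thinned to the same depth these values were 0.319, 0.230, 0.127 and 0.0598. Counting noise pulls r toward 0 for genes with few UMIs. The correlation of the excess spread, which leaves this noise aside, was 0.170 for Chil3 and Ear1 and 0.131 for Chil3 and Car4, and it was as large for pairs whose r was under 0.1, namely Ear1 and Itgax (0.173), Car4 and Krt79 (0.170) and Itgax and Krt79 (0.169). Levels of single hallmarks had correlations of 0.009 to 0.172 with the UMIs of the cell.

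**Figure D4:**
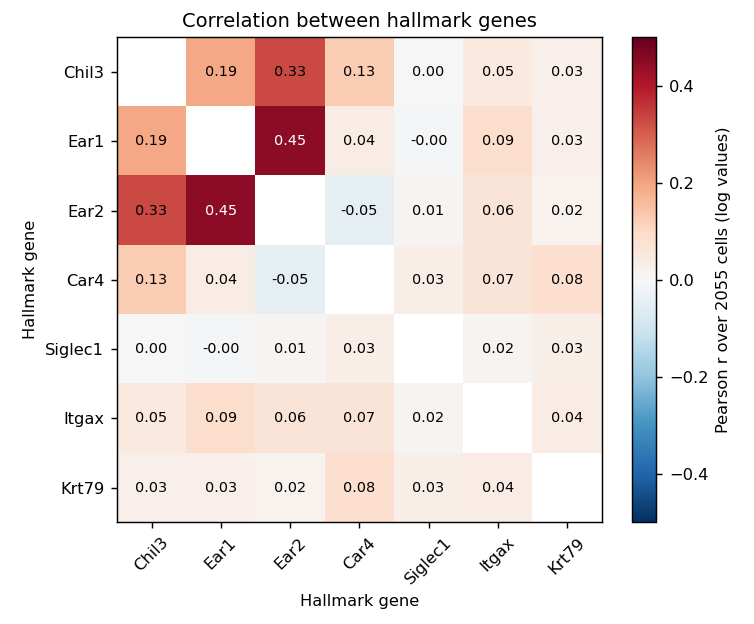
Pearson r over 2055 cells between the log values of each pair of hallmarks, written in each square and coloured from blue (negative) to red (positive). Ear1 with Ear2 (0.45) and Chil3 with Ear2 (0.33) are the highest, and the values of Siglec1, Itgax and Krt79, which had few UMIs, are all under 0.1.

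Ear1 and Ear2, the pair with almost the same sequence before the RefSeq start sites, tracked each other. Whether the sequence bears on this was not tested. The correlation of their excess spread was 0.759, against 0.283 for Chil3 and Ear2. In the 514 cells with the highest Ear2 level, Ear1 stood at 23.6 UMIs per 10000, and in the 514 with the lowest at 7.83 (3.02-fold, interval 2.84 to 3.21). Chil3 stood at 155 and 111 in the same cells (1.40-fold, interval 1.38 to 1.43). In the thinned cells, 2.21% had neither ribonuclease, and the product of the 2 single shares is 0.943%. Among all cells, 11 had neither, 14 had Ear1 without Ear2 and 160 had Ear2 without Ear1.

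Car4 did not follow the ribonucleases. It was lower in the cells with the most Ear2, at 4.77 against 6.52 UMIs per 10000 in those with the least (0.731-fold, interval 0.669 to 0.799). The correlation of Car4 and Ear2 was -0.0482 on the log values and -0.0858 after thinning, and that of their excess spread was -0.192. Over the cells ranked by Chil3, in contrast, Car4 was higher at the top, 7.09 against 4.92 (1.44-fold, interval 1.32 to 1.58), as were Ear2 with 39.6 against 23.2 (1.70-fold, interval 1.64 to 1.77) and Ear1 with 17.8 against 11.1 (1.61-fold, interval 1.52 to 1.70). The cells ranked highest for Chil3 were also deeper, with a median of 3590 UMIs against 2894.5. Itgax and Krt79 did not follow Chil3, at 0.971-fold (interval 0.861 to 1.10) and 0.951-fold (interval 0.853 to 1.06). Krt79 and Car4 were higher together to a small extent. Cells ranked highest for Krt79 had 6.38 UMIs of Car4 per 10000 and the lowest 5.04 (1.27-fold, interval 1.16 to 1.39). The highest cells were also deeper, with a median of 3126.5 UMIs against 2871. The lowest were drawn from 798 cells that all lacked a Krt79 UMI. Over all cells the r of Car4 and Krt79 was 0.0835, and after thinning it was 0.0283.

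Each hallmark was then set against all genes averaging at least 0.5 UMI per cell to find those most like it, by Pearson r on the log values over 2055 cells. Chil3 was closest to Cd9, a tetraspanin (0.442), Lyz2, which encodes lysozyme (0.390), and Ctss, a lysosomal protease (0.359). It was least like Rpl41 (-0.225), Ptma (-0.177) and Rplp1 (-0.172), of which the first and last encode ribosomal proteins. For comparison, 95% of the 1122 other genes had an r with Chil3 under 0.125. Beside each other, Ear1 and Ear2 were also closest to Lyz2 (0.331 and 0.354). Next came Ctss for Ear1 (0.299) and Chil3 for Ear2 (0.331). At the other end, Ear2 was least like the ferritin chains Ftl1 (-0.191) and Fth1 (-0.154), and then Ptma (-0.131), and Ear1 least like the kinase gene Pim1 (-0.111), Fth1 (-0.109) and Rpl41 (-0.101).

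Car4 had a different neighbourhood. Its nearest genes were Wfdc21 (0.234) and Wfdc17 (0.186), which encode small secreted proteins with a whey acidic protein domain, and between them the chemokine Ccl6 (0.223). Among the lowest were the cholesterol exporter Abcg1 (-0.0921) and Gpx1 (-0.0694). For Krt79 the highest was the other abundant keratin of these cells, Krt19 (0.112), followed by Wfdc21 (0.102) and Anxa2 (0.0961), and the lowest were Pim1 (-0.0627), Mcoln3 (-0.0587) and Rheb (-0.0494). For Itgax the highest values, for Xist (0.143), mt-Co1 (0.132) and Psap (0.126), and the lowest, for H3f3b (-0.101) and Rpl37 (-0.100), were all weak. The same applied to Siglec1, whose highest r was 0.0742, with 2310036O22Rik, then Hpcal1 (0.0672) and Cybb (0.0657), and whose lowest was -0.101, with Rpl32, then Rps26 (-0.0883) and Anxa2 (-0.0879).

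The hallmarks were next compared between cells that were high for 6 other programmes and the rest. For each programme the 206 cells with the highest share of UMIs on its genes were set against the other 1849, and 384 cells with over 5% mitochondrial UMIs against 1671. These cells are the upper range of a score and not a cell type. Of 49 values, 1 passed 1.5-fold in either direction, that of Siglec1 in the cells high for heat shock genes. It rested on 23 UMIs (2.20-fold, interval 1.33 to 3.49), and 3.43% of 4222 genes passed there. In cells thinned to 1500 UMIs its log2 fold was 0.06. The 42 values of the other hallmarks ran from 0.682-fold to 1.33-fold.

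Cells high for cell cycle genes had somewhat less of several hallmarks. None passed 1.5-fold, which 9.90% of 4221 genes did. Car4 stood at 4.16 UMIs per 10000 in these cells and 6.10 in the others (0.682-fold, interval 0.609 to 0.762), Ear2 at 25.2 and 34.3 (0.736-fold, interval 0.704 to 0.770) and Krt79 at 2.84 and 3.84 (0.739-fold, interval 0.643 to 0.846). Ear1 and Chil3 were at 0.819-fold (interval 0.768 to 0.872) and 0.917-fold (interval 0.899 to 0.936). The median depth of the cells was 3847 UMIs and that of the others 3242. With every cell thinned to 1500 UMIs and ranked anew, the log2 folds were -0.40 for Car4, -0.43 for Ear2 and -0.41 for Krt79. With all UMIs they were -0.55, -0.44 and -0.44. Ear1 went from -0.29 to -0.42 and Chil3 from -0.12 to -0.11. A part of depth beyond this was not tested. Chil3 was found in 100% of the cells high for cell cycle genes and of the others, as in every cell of the library, so its detection cannot tell the 2 groups apart. In the 5% of cells with the highest cell cycle share, Ear2 and Car4 were past 1.5-fold, at log2 folds of -0.72 and -0.70. With this cut, 11.9% of the values over all genes and programmes passed, and the share for the cell cycle alone was not computed.

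In cells high for MHC class II genes, the antigen presentation molecules, Chil3 stood at 158 UMIs per 10000 against 133 in the others (1.19-fold, interval 1.16 to 1.21) and Ear2 at 36.2 against 32.9 (1.10-fold, interval 1.06 to 1.15). In cells high for chemokine and TNF genes, Car4 was at 7.43 against 5.69 (1.31-fold, interval 1.19 to 1.43) and Chil3 at 143 against 135 (1.06-fold, interval 1.04 to 1.08). Ear1 and Ear2 were at 0.947-fold (interval 0.890 to 1.01) and 0.968-fold (interval 0.929 to 1.01) in these cells. Both groups were deeper than the other cells. The median was 3577 UMIs against 3247 for MHC class II genes, and 3611.5 against 3245 for chemokine and TNF genes. No hallmark passed 1.5-fold in either group of cells, where 4.14% and 5.90% of genes did. In the 5% of cells with the highest chemokine and TNF share, Car4 did, at a log2 fold of 0.60. With this cut, 11.9% of the values over all genes and programmes passed. In the cells with over 5% mitochondrial UMIs, Itgax was at 3.98 against 2.98 (1.33-fold, interval 1.20 to 1.48), the largest value of this hallmark, and Chil3 at 149 against 133 (1.12-fold, interval 1.10 to 1.14), with 3.48% of genes past 1.5-fold. These cells were shallower, with a median of 2684.5 UMIs against 3403. In cells thinned to 1500 UMIs the log2 fold of Itgax was 0.46, and with all UMIs it was 0.42. In the cells high for heat shock genes Car4 was at 1.25-fold (interval 1.13 to 1.37) and Krt79 at 0.842-fold (interval 0.730 to 0.966). High immediate-early and interferon-induced genes went with values of 0.845-fold to 1.08-fold for the hallmarks other than Siglec1. Of the genes compared, 5.81% and 3.74% passed 1.5-fold there. The interferon group rested on very few UMIs. Its cut was a share of 0.0534%, and the median share was 0.0780% in its cells and 0 in the others. By comparison, a share of 0.0915% stands for 3 UMIs where depth equals the library's median. Counting noise therefore had a part in which cells were chosen. How far it held these folds near 1 was not tested.

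**Figure D5:**
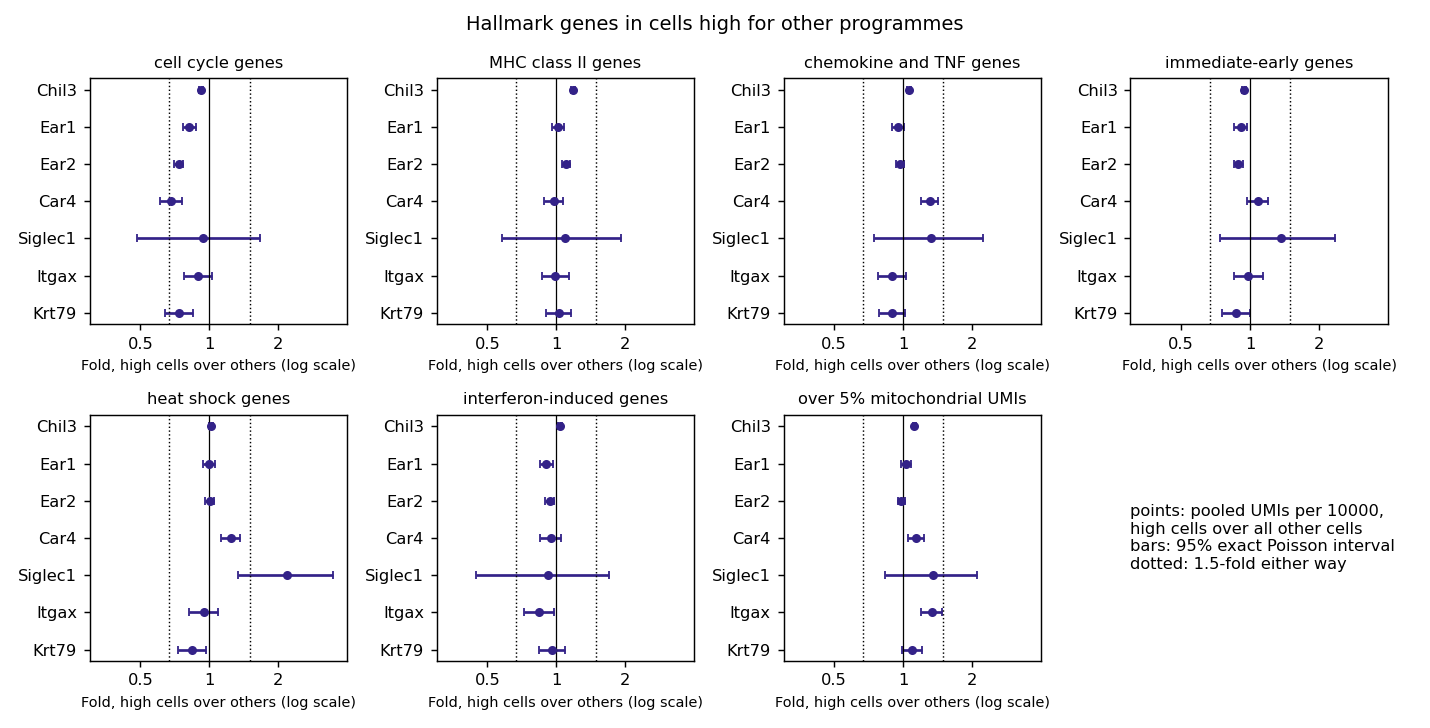
Fold of each hallmark between cells high for a programme and all other cells (horizontal axis, log scale), with 95% Poisson intervals as bars and dotted lines at 1.5-fold in either direction. The lowest points for the cell cycle are Car4 at 0.682 and Ear2 at 0.736, and the wide bars belong to Siglec1, which had 122 UMIs in all.

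Among the ribonucleases, the chitinase-like genes and the carbonic anhydrases, the hallmarks held nearly all UMIs of their family. Of 14 genes of the eosinophil-associated ribonucleases and their relatives, 7 were listed, and only Ear1 and Ear2 were found in more than 90% of cells. Ear10, with 93.5% of its upstream window identical to that of Ear1, had 37 UMIs in 1.75% of cells, Ear6 123 UMIs in 5.26% and Rnase2b 22 UMIs in 0.925%. Of the 3' sequences of Ear10, 16.5% occurred in other genes of the family, so its own count is uncertain. Rnase4, a ribonuclease outside this branch, was found in 15.2% of cells and Ang, which encodes angiogenin, in 6.23%. The chitinase-like genes showed the same contrast. Chil4, whose upstream window matched that of Chil3 at 90.1% of positions, had 17 UMIs in 0.827% of cells where Chil3 had 98148 in all of them, and Chil1 had 8 UMIs. Of 13 carbonic anhydrases 5 were listed, and those other than Car4 were found in at most 3.07% of cells (Car5b).

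Itgax was accompanied by its partner. Itgb2 was detected in 57.0% of cells at 2.76 UMIs per 10000, and Itgal, the α chain of another integrin with the same partner, in 59.2% at 2.80, both near the 61.1% and 3.14 of Itgax. Itgam, the α chain CD11b, was detected in 0.535% of cells. Among 9 sialic acid-binding receptors 7 were listed, and Siglec1 was not the leading one. Siglecf, whose product was used in the sort, was found in 41.4% of cells, Cd33 in 36.3%, Siglece in 15.9% and Cd22 in 9.34%. Of 9 keratins 3 were listed. Krt19, in 48.4% of cells with an excess CV of 0.634 close to that of Krt79, was the other abundant member, and Krt10 was found in 1.12%.

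In a list of 32 further genes known from AMs, all were listed and 27 averaged at least 0.5 UMI per cell. An excess CV of 0.5 or more was reached by 9 of the 27, against 13.8% of the 1123 genes above the same mean. The median of the 27 was 0.396, above the 0.295 of the 1123 genes and below the 0.570 of the hallmarks. The scavenger receptor Marco (1.13), the fatty acid-binding protein Fabp4 (1.31), the tetraspanin Cd63 (1.53) and the protease Ctsk (1.17) varied more than any of the hallmarks, and the mannose receptor Mrc1 (0.291) and Atp6v0d2, a subunit of the proton pump (0.309), varied less. Lyz2 and Cd9, the genes nearest to Chil3, were like it found in every cell, with an excess CV of 0.451 and 0.433.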

How the data were processed

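The authors sequenced 1 library of sorted WT AMs, counted UMIs with Cell Ranger on mm10 and, per the labels, used Seurat. They deposited, for each gene and cell, the natural log of 1 plus UMIs per 10000 UMIs of the cell, and a scaled score of it, regressed on UMIs and mitochondrial content and capped at 10. The deposited scores served only as an alternative scale for correlations. UMIs were recovered from the log values (100% whole within 1e-06). The methods describe removal of cells over 5% mitochondrial content, of Xist and of ribosomal protein genes, yet 384 such cells, Xist and 108 genes named Rps or Rpl are listed, and all were kept. No doublet caller was run.

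Shares of cells have Wilson intervals, and pooled UMIs per 10000 and their ratios exact 95% intervals from the Poisson distribution. The excess CV was a moment estimate with the UMIs of a cell as its depth. In simulated cells at the real depths, 0% of 800 genes without excess spread and 100% of 50 genes with a true excess CV of 0.7 reached 0.5, among 1000 genes. Gene positions came from GENCODE M21, upstream sequences from RefSeq (GRCm38.p6), aligned with free ends. Named genes are the hallmarks, their families, other AM genes, and the 3 highest and lowest correlates of each hallmark, 2 of which are not reported here. The hallmarks and lists were chosen with earlier results of these data known. Alternatives covered depth, mitochondrial limit, ranking and scale. Python 3.11.15, numpy 2.4.6, scipy 1.17.1, pandas 2.3.3 and biopython 1.88 were used. No test was run, since there is 1 library.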

Additional observations from a re-analysis of the deposited data

How the results depend on the processing

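The share of UMIs on the 7 hallmarks, 1.97%, was 1.96% with every cell thinned to 1500 UMIs and 1.95% in the 1671 cells with at most 5% mitochondrial UMIs. The number of hallmarks with an excess CV of at least 0.5, 4 of 6, was 5 after thinning, where Itgax stood at 0.582 and 17.5% of all genes above the same mean reached 0.5 (13.8% as reported), and 3 both without the 1% of cells with the highest level of each gene and in the 1502 cells outside the upper range for cell cycle, MHC class II, or chemokine and TNF genes, where Ear2 stood at 0.499 and 0.492 and 8.19% and 10.6% of genes reached 0.5. With genes that average at least 0.1 UMI per cell as background, 27.2% of 4231 genes reached 0.5, beside the same 4 of 6 hallmarks. The number of hallmarks with a ratio of at least 1.5 between the 2 sets of UMIs was 5 under each of 4 alternatives. The share of all genes with such a ratio ran from 10.2% after thinning to 29.4% with the highest and lowest 10% of cells (16.4% as reported). The correlation of Ear1 and Ear2 ran from 0.319 to 0.458 over 5 alternatives. Of the 49 values in cells high for other programmes, 1 passed 1.5-fold as reported, 4 did after thinning, all of Siglec1 on 3 to 11 UMIs, 3 of 42 in the cells with at most 5% mitochondrial UMIs, 2 of them of Siglec1, and 4 in the 5% of cells with the highest share, 1 of them of Siglec1. Over all genes and programmes 5.20%, 12.9%, 6.88% and 11.9% of the values passed. Siglec1 in cells high for heat shock genes had a log2 fold of 0.06 after thinning. Car4 in cells high for cell cycle genes stood at a log2 fold of -0.61 in the cells with at most 5% mitochondrial UMIs and -0.70 in the 5% of cells, and Ear2 at -0.72 in the latter, while Car4 in cells high for chemokine and TNF genes was at 0.60. Some values within 1.5-fold changed sign between settings, among them Ear1 and Car4 in cells high for MHC class II genes. No paired analysis was possible because there is 1 library and no test. Depth limits Siglec1 most, since 3 UMIs are 0.0915% of a cell of median depth and it averaged 0.0594 UMI per cell.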
